A study of Rattus norvegicus with 5 samples.

Results

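The solute carriers measured on Affymetrix rat arrays were described in sorted *Trh*-promoter cells, in unselected transfected cells and in non-transfected cells of the fetal hypothalamus. A gene was taken as a member if a probe set carried its symbol alone and that symbol began with Slc and a family number. The glial glutamate transporters *Slc1a2* and *Slc1a3* were not included. The rule found 173 probe sets for 118 genes of 37 families, out of 4736 named genes on the array, and the probe set with the highest mean stood for a gene that had several. No member was filtered out. Of the 118 members, 57 belonged to the brightest 41% of probe sets, with a mean signal above 175 over the 5 arrays, and the other 61 are called dim here.

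The cells were primary cultures of hypothalamus from Wistar rat embryos at day 17. GFP+ cells (2 arrays, RNA of 6 pooled experiments) had been transfected with a plasmid in which a minimal *Trh* promoter drives green fluorescent protein, and were sorted for fluorescence. GFP+/- cells (2 arrays, 3 pooled experiments) had the same transfection, 24 h after seeding with polyethylenimine as carrier, and passed through the sorter 48 h later without selection. NT cells (1 array, 3 pooled experiments) were not transfected, and no label states that they passed the sorter, so transfection and the sorter cannot be told apart in a comparison with NT cells. Both arrays of a population held aliquots of 1 pool of RNA by the study's methods, but the labels name them biological replicates, so p-values measure only the spread between arrays. By the study's account, the 3 experiments of GFP+/- and NT cells were other than the 6 of GFP+ cells. Sorting and culture preparation thus cannot be told apart in a comparison with GFP+ cells. The GFP reporter marks cells in which the plasmid's promoter was active.

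Solute carriers are membrane proteins that move ions, amino acids, sugars, transmitters and metabolites along or against gradients without hydrolysing ATP themselves. Many of those in neurons draw on the sodium gradient that the sodium pump builds up, and the vesicular carriers draw on a proton gradient instead. In a maturing neuron the balance of the chloride carriers NKCC1 and KCC2 sets the chloride gradient on which GABA receptors act, and mitochondrial carriers pass nucleotides, phosphate and acids over the inner membrane.

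The arrays differed in their cell type markers and in a measure of RNA integrity. The 14 measured neuronal markers (of 21 listed) summed to signals of 33097 and 28030.0 in GFP+ cells, 21367 and 22983 in GFP+/- cells and 43824 in NT cells. Those of the 18 measured fibroblast markers (of 20) were 20996 and 30093, 57884 and 56866, and 26946. Those of the 8 endothelial and mural markers (of 15) were 2646 and 4696, 10504 and 12556, and 2095, and those of the 8 choroid plexus and ependymal markers (of 10) were 4101 and 6268, 20275 and 19122, and 4767. These last sums do not stand for each gene. In GFP+ against GFP+/- cells, 4 of 8 endothelial and mural markers were higher (median log2 difference -0.075). So were 4 of 8 choroid and ependymal markers (median 0.0025), of which the brightest had a mean signal of 9404. Sums of the 14 astrocyte markers (of 17) ran from 40023 to 47447 and of the 9 oligodendrocyte markers (of 12) from 1719 to 1834. The 9 microglial markers (of 13), 1 of them bright, summed to 1144 and 949 in GFP+ cells, 705 and 546 in GFP+/- cells and 976 in NT cells. In GFP+ against GFP+/- cells 8 of these 9 were higher (median log2 difference 0.44). The 3 erythroid markers (of 11) had 405 in NT cells and from 3532 to 8683 in the others. The signal of the 3′ probe set of the control transcript *Gapdh* was 14.6 and 17.6 times that of the 5′ probe set in GFP+, 12.7 and 14.2 times in GFP+/- and 5.45 times in NT cells, and a higher ratio means that less of the 5′ end was measured. For beta-actin the ratio was 22.9 and 18.7 in GFP+ cells, 31.4 and 14.4 in GFP+/- cells and 10.9 in NT cells, lowest in NT cells again but with a wide gap between both GFP+/- arrays. The part of these differences in the results was not tested. In such mixed RNA, fewer cells of a type and less RNA per cell cannot be told apart.

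The carriers differed in both directions, around medians near those of all probe sets. The median log2 difference of the 118 members was 0.12 for GFP+ minus GFP+/- cells, 0.099 for GFP+ minus NT and -0.066 for GFP+/- minus NT cells, and over all 8740 probe sets it was 0.13, 0.056 and -0.094. With the arrays scaled to equal medians, the median over all probe sets moved by -0.16 for GFP+ minus GFP+/- cells, and the members above 0 went from 74 to 52 of 118. The quartiles of the members ran from -0.18 to 0.36 for GFP+ minus GFP+/- cells, from -0.41 to 0.60 for GFP+ minus NT and from -0.57 to 0.57 for GFP+/- minus NT cells. The excess of members with a higher signal in GFP+ than in GFP+/- cells thus depended on the scaling. Roles were given to whole families by their best known substrates, so a group can hold a member with another substrate. By role, bright members made up 11 of 12 mitochondrial carriers, 8 of 11 carriers of amino acids and peptides and 8 of 16 of bicarbonate, chloride and other anions, but 1 of 10 carriers of bile acids and organic ions, 1 of 7 sodium, calcium and proton exchangers and 2 of 7 carriers of nucleosides and vitamins.

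**Figure D1:**
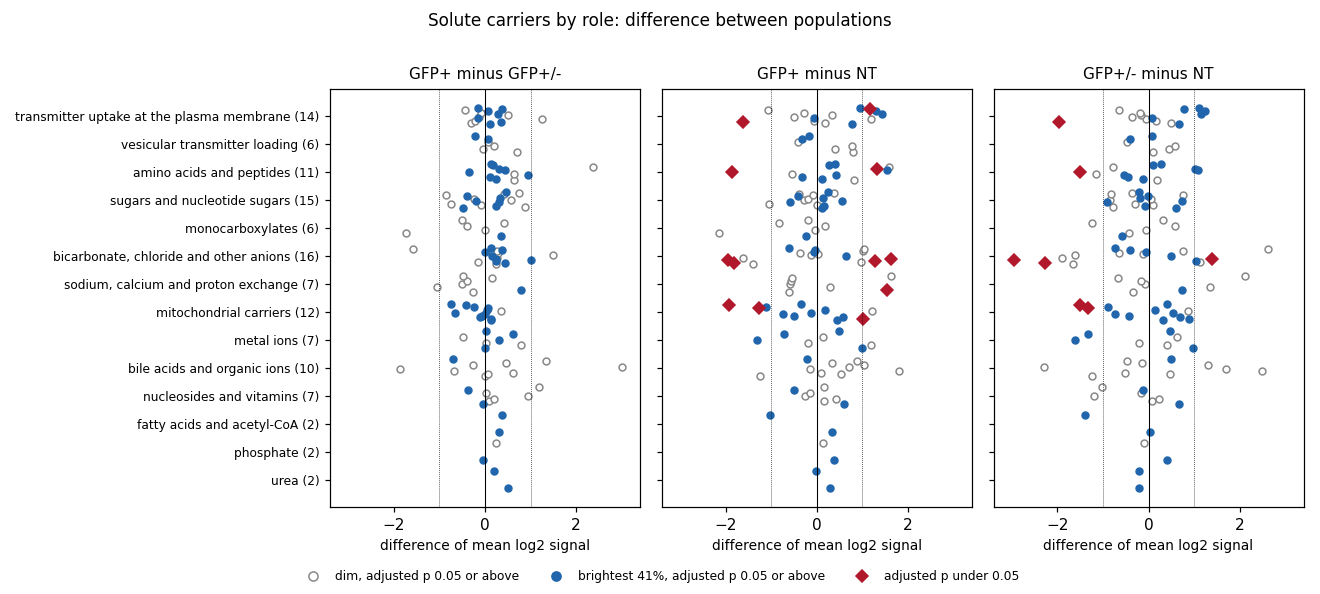
Difference of the mean log2 signal for 117 solute carriers in 14 role groups (members of each group in parentheses; *Slc44a4* belongs to none and is not drawn). Each point is a gene, open points are dim genes, blue points belong to the brightest 41%, red diamonds passed the limma test at an adjusted p under 0.05, and dotted lines mark 2-fold. Red diamonds appear in the comparisons with NT cells, 12 in GFP+ and 7 in GFP+/- cells, and there are none between GFP+ and GFP+/- cells.

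Differences between GFP+ and GFP+/- cells show which carriers differed between the sorted cells and a mixed transfected culture from other experiments. In limma's test 0 of 118 members passed an adjusted p of 0.05 in either direction, as did 0% of the 4736 named genes, and at an unadjusted p under 0.05 there were 14 members (11.9%) against 13.8% of genes. When only the brightest 41% were tested, 0 of 57 members passed, against 3.43% of 2334 genes. More than 2-fold higher by the ratio of averaged signals were 8 members (6.78%), against 6.97% of genes, and more than 2-fold lower were 4 (3.39%), against 3.72%. Both GFP+ arrays lay above both GFP+/- arrays for 36 members (30.2% of genes did so) and below them for 18 (16.3% of genes). These shares were near the background. Among the 8 that were 2-fold higher, *Slc12a5* alone was bright, but its GFP+/- arrays lay below the brightness limit. The 4 that were 2-fold lower were dim.

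The carrier with the widest gap among the bright members was *Slc12a5*, the chloride-extruding cotransporter KCC2 of neurons. Its signals were 207 and 391 in GFP+ cells, 141 and 142 in GFP+/- cells and 1091 in NT cells. The GFP+ arrays lay above the GFP+/- arrays, and NT lay far above both populations. Each GFP+/- array lay below the brightness limit and was not shown to be above background, so the size of a gap to GFP+/- cells is uncertain. The log2 difference of GFP+ minus GFP+/- cells was 1.01 (SE 0.34, adjusted p = 0.288), and it was 0.55 without the second GFP+ array.

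Next came *Slc1a1*, the neuronal glutamate and cysteine transporter, with signals of 723 and 588 in GFP+ cells, 256 and 443 in GFP+/- cells and 488 in NT cells. NT lay between the populations, and GFP+ minus GFP+/- cells gave 0.95 (SE 0.30, adjusted p = 0.282). Of its dim probe sets one had 1.64 and the other -0.57. *Slc8a1*, the sodium-calcium exchanger NCX1, had 717 and 633 in GFP+ cells, 316 and 478 in GFP+/- cells and 233 in NT cells. Its signals were highest in the sorted cells and lowest in NT cells, with a difference of 0.79 (SE 0.25, adjusted p = 0.282) between GFP+ and GFP+/- cells. With the mean of all its probe sets, the other 4 of which are dim, the difference was -0.022. Smaller differences with separated arrays were 0.50 for the urea transporter *Slc14a1*, 0.45 for the multivitamin transporter *Slc5a6*, 0.38 for the creatine transporter *Slc6a8*, 0.37 for the anion exchanger *Slc4a3* and 0.36 for the neutral amino acid transporter *Slc6a15*. Their adjusted p lay between 0.344 and 0.556. For *Slc14a1* the difference was -0.21 with the mean of its probe sets.

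On the lower side stood *Slc25a5*, the widespread adenine nucleotide translocator ANT2. Its signals were 6233 and 7009 in GFP+ cells, 11326 and 10776 in GFP+/- cells and 8385 in NT cells, and those of GFP+ cells lay below the other 3 arrays. The difference of GFP+ minus GFP+/- cells was -0.74 (SE 0.19, adjusted p = 0.205; 0.072 among the brightest 41%). *Slc22a7*, an organic anion transporter best known from liver and kidney, had 236 and 280.1, 419 and 421, and 297 (difference -0.71, adjusted p = 0.246). Its dim second probe set had a difference of 0.094, and the mean of its probe sets gave -0.31. *Slc25a20*, which carries acylcarnitines into mitochondria, had 375 and 495, 557 and 829, and 470.1 (-0.66, adjusted p = 0.360). Then followed *Slc2a1*, the glucose transporter GLUT1 of the blood-brain barrier and glia, with 1202 and 1379, 1765 and 1851, and 1189 (-0.49, adjusted p = 0.288). By this probe set GLUT1 was brightest in the mixed cells, where the endothelial, fibroblast and choroid marker sums were also largest. A relation to those markers was not tested. The dim second probe set of *Slc2a1* had 169 and 124, 155 and 215, and 171, so its populations overlapped (-0.33). Other separated members had differences of -0.43 for the translocator ANT1 (*Slc25a4*), -0.41 for the sodium-glucose cotransporter *Slc5a1*, -0.38 for the nucleoside transporter *Slc29a2* and -0.36 for *Slc3a1*, with adjusted p from 0.456 to 0.610. *Slc3a1* counts as bright through its NT signal only, and each of its GFP+ and GFP+/- arrays lay below the brightness limit.

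Dim carriers gave larger ratios. *Slc22a25*, of the organic anion transporter family, had 35.1 and 63.2 in GFP+ cells, 5.38 and 6.36 in GFP+/- cells and 28.9 in NT cells, a difference of 3.01 (adjusted p = 0.148). *Slc7a2*, a transporter of cationic amino acids, had 49.9 and 54.6 in GFP+ cells, 9.98 and 10.4 in GFP+/- cells and 17.4 in NT cells, a difference of 2.36 (adjusted p = 0.160). Both were higher on the GFP+ arrays, and those below were lower there. *Slc22a2*, an organic cation transporter, had 18 and 22.8, 70.2 and 76.6, and 22.6 (-1.86, adjusted p = 0.196). *Slc16a12*, of the monocarboxylate carrier family, had 9.01 and 9.77, 26.8 and 36.2, and 41.7 (-1.73, adjusted p = 0.235). *Slc4a4*, the sodium bicarbonate cotransporter NBCe1 of astrocytes, had 22.1 and 36.1, 97.8 and 73.5, and 13.9 (-1.59, adjusted p = 0.265). These 5 had the widest differences in size among dim members and were singled out after their values were seen. At signals this low no detection call was used here, so none of them was called present.

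The comparisons with NT cells ask which carriers differ from a culture that was not transfected. In GFP+ against NT cells 6 members rose (5.08%, against 4.31% of genes) and 6 fell (5.08%, against 4.10% of genes) at an adjusted p under 0.05 in limma. More than 2-fold higher were 22 (18.6%, against 13.6% of genes) and lower 13, against 11.1%. Among the brightest 41%, 20 of 57 members passed (35.1%), against 30.5% of genes. In GFP+/- against NT cells 1 member rose (0.847%, against 4.54% of genes) and 6 fell (5.08%, against 5.32%). There, 15 were over 2-fold higher (12.7%, against 11.7% of genes) and 16 lower (13.6%, against 13.8%), and among the brightest 41% 21 of 57 passed (36.8%), against 31.2%. Both comparisons share the lone NT array, which was assumed to vary like the others. With either array of the transfected population left out, or with a prior variance without an intensity trend, 0 members were called in each comparison.

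The calls met most often in family 12, the cation-chloride cotransporters, of which 4 of 6 measured members were bright. *Slc12a5* (KCC2, values above) fell by 1.94 on the log2 scale in GFP+ (SE 0.41, adjusted p = 0.0468) and by 2.95 in GFP+/- cells (SE 0.41, adjusted p = 0.0183) against NT. *Slc12a2*, the sodium-potassium-chloride cotransporter NKCC1 that loads young neurons with chloride, had 164 and 255 in GFP+ cells, 136 and 167 in GFP+/- cells and 726 in NT cells. It fell by 1.82 (SE 0.36, adjusted p = 0.0403) and by 2.26 (SE 0.36, adjusted p = 0.0239). The chloride loader and the chloride extruder of neurons were thus both brightest in NT cells. For both genes each GFP+/- array lay below the brightness limit, as did the first GFP+ array of *Slc12a2*. Those signals were not shown to be above background, so the sizes of the falls that use them are uncertain.

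The remaining bright potassium-chloride cotransporters ran the other way. *Slc12a7*, the cotransporter KCC4, had 1229 and 1287 in GFP+ cells, 984 and 1159 in GFP+/- cells and 407 in NT cells. It rose by 1.63 (SE 0.21, adjusted p = 0.0158) in GFP+ and by 1.39 (SE 0.21, adjusted p = 0.0218) in GFP+/- cells. *Slc12a4*, the volume-regulating KCC1 found in most tissues, had 372 and 466, 349.6 and 355, and 171. It rose by 1.28 in GFP+ cells (SE 0.26, adjusted p = 0.0419), and its difference in GFP+/- cells was 1.04 (SE 0.26, adjusted p = 0.0648). NT was the lowest array for both genes. A second bright probe set of *Slc12a4* had 299 and 351, 201 and 236, and 196, and with a difference of 0.72 from NT in GFP+ cells it did not pass (adjusted p = 0.183). *Slc12a2* has 3 dim probe sets besides, with differences between -1.0 and 0.69 in GFP+ against NT cells, and the mean over its probe sets did not pass either (-0.59, adjusted p = 0.465). The kidney cotransporters *Slc12a1* and *Slc12a3* were dim on every array.

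**Figure D2:**
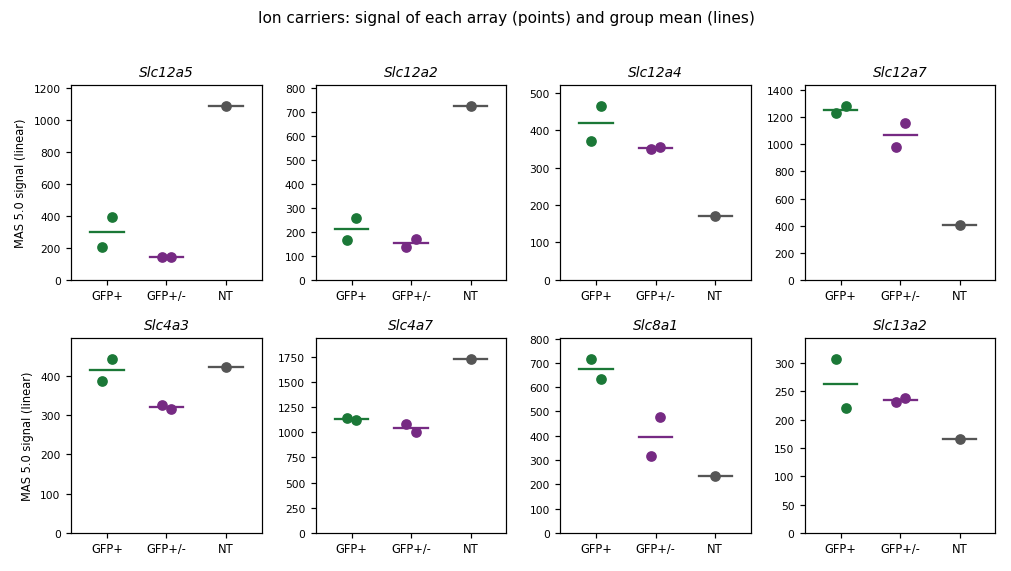
MAS 5.0 signal (linear scale, from 0) of 8 ion carriers, with a point per array and a line at the mean of each population (2 GFP+, 2 GFP+/- and 1 NT array). The signals of *Slc12a5* and *Slc12a2* are highest in NT cells (1091 and 726), those of *Slc12a4*, *Slc12a7* and *Slc8a1* lowest (171, 407 and 233).

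Of the other ion carriers 1 was called. *Slc8a1* (NCX1) rose by 1.53 in GFP+ over NT cells (SE 0.31, adjusted p = 0.0426), and its difference in GFP+/- cells was 0.74 (adjusted p = 0.217). With the mean over its probe sets there was no call (0.029, adjusted p = 0.981). The sodium bicarbonate cotransporter *Slc4a7* had 1141 and 1127 in GFP+ cells, 1086 and 999 in GFP+/- cells and 1729.8 in NT cells (difference of GFP+ from NT -0.61, adjusted p = 0.118). The erythroid and renal exchanger *Slc4a1* had between 378 and 419 on the 5 arrays, and its differences were at most 0.06 in size. Of the 15 subunits of the sodium pump on the list, which feeds most of these carriers, 7 were measured. None was called higher, and *Atp1b3* fell in GFP+ (-1.58, adjusted p = 0.0158) and, with *Atp1b1*, in GFP+/- against NT cells (-1.47, adjusted p = 0.0181, and -1.55, adjusted p = 0.0278). The summed signal of the 7 subunits was 12050.1 and 10186 in GFP+ cells, 6566 and 7585 in GFP+/- cells and 19049 in NT cells. That order is also the order of the neuronal marker sums, and a relation between them was not tested. The brightest subunit had a mean signal of 8554, so the sum does not stand for each subunit. In GFP+ against GFP+/- cells 4 of 7 were higher, with a median difference of 0.088. Among 9 measured partners of carriers (of 14 listed) 0 rose and 2 fell in GFP+ against NT cells. They were the heavy chain *Slc3a1*, itself a member, and *Stk39*, a kinase that acts on cation-chloride cotransporters, with 544 and 512, 656 and 502, and 1194 (-1.18, adjusted p = 0.0451). In GFP+/- cells 0 rose and 1, *Slc3a1*, fell. Beside these counts and those of the sodium pump, 4.31% of all genes rose and 4.10% fell in GFP+ against NT cells. In GFP+/- against NT cells 4.54% of all genes rose and 5.32% fell.

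Amino acid carriers had members on both sides as well. *Slc3a2*, the heavy chain shared by several exchangers of family 7, had 6803 and 4151 in GFP+ cells, 4914 and 3097 in GFP+/- cells and 1837 in NT cells. All 4 transfected arrays lay above NT, and the differences were 1.53 in GFP+ (SE 0.40, adjusted p = 0.0789) and 1.09 in GFP+/- cells (SE 0.40, adjusted p = 0.169). Its second bright probe set had 1140.1 and 595, 806 and 473, and 776, with a difference of 0.09 in GFP+ against NT cells. The light chain *Slc7a5*, the exchanger LAT1 of large neutral amino acids, had 560.0 and 721, 608 and 555, and 481 (0.40, adjusted p = 0.404). The other heavy chain, *Slc3a1*, which works with a cystine exchanger in kidney, had 149.7 and 109 in GFP+ cells, 159 and 169 in GFP+/- cells and 461 in NT cells. It fell by 1.85 (SE 0.33, adjusted p = 0.0309) and by 1.49 (SE 0.33, adjusted p = 0.0487), and the latter did not pass with quantile normalization or equal medians (adjusted p = 0.0610 and 0.0572). *Slc3a1* passed the brightness limit through its NT signal only. Each of its transfected arrays lay below that limit, and their signals were not shown to be above background, so the size of the fall is uncertain.

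*Slc7a1* encodes CAT-1, the widespread importer of arginine and lysine, and is a known target of the amino acid response, in which ATF4 and C/EBP factors bind a composite element. Its promoter is shown because it is one of 2 among the members that hold the letters of that element. The motif TGATGNAA was searched on both strands in RefSeq promoter windows of assembly GRCr8, 250 bases before to 50 bases after each gene's start. Windows were found for 99 of the 118 members, and 2 of them (2.02%) held it, against 1048 of 27457 windows in all (3.82%). The capitals below mark the match, which begins at -30 from the start on the gene's own strand.

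*Slc7a1* promoter at chr12:11664238-11664537, plus strand: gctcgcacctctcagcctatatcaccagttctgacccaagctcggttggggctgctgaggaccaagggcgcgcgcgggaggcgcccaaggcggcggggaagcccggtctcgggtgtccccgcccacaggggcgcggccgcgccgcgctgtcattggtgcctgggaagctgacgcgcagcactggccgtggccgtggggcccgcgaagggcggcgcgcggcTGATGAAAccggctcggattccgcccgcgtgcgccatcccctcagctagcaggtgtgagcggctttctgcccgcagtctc

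The match describes letters and not a bound site. Of this window 72% is G or C, above the median of 59.3% over the members' windows and 52.3% over all windows. The other member with the motif is *Slc23a3*, a dim gene with signals from 135 to 178 on the 5 arrays.

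The *Slc7a1* signals were 713 and 586 in GFP+ cells, 474 and 578 in GFP+/- cells and 260.3 in NT cells. All 4 transfected arrays lay above NT, and *Slc7a1* rose by 1.31 in GFP+ cells (SE 0.25, adjusted p = 0.0379), whereas the difference of 1.01 in GFP+/- cells missed the threshold (SE 0.25, adjusted p = 0.0671). Another bright probe set of the gene had 388 and 158, 464 and 416, and 8.62. NT was lowest there too, but 8.62 was not shown to be above background and the probe set is bright through the transfected arrays only, so no size is given for that gap. Against GFP+/- cells, however, that probe set had -0.83 in GFP+ cells and the brightest one 0.30, so they differed in sign. The related *Slc7a3*, CAT-3 of brain, had 792 and 679, 588 and 722, and 609 (0.27 against NT, adjusted p = 0.585).

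Of 23 listed genes of the amino acid and integrated stress response, 9 were measured, and of these 4 rose and 0 fell in GFP+ against NT cells, where 4.31% of all genes rose and 4.10% fell. They were the feedback phosphatase subunit *Ppp1r15a* (2.43, adjusted p = 0.0158), the transcription factors *Ddit3* (2.32, adjusted p = 0.0345) and *Cebpb* (4.52, adjusted p = 0.0149) and the kinase-like *Trib3* (3.11, adjusted p = 0.0183). *Cebpb* and *Trib3* are dim, and they were also the 2 that rose in GFP+/- cells (5.11, adjusted p = 0.0110, and 3.07, adjusted p = 0.0190). Their NT signals lay far below the brightness limit and were not shown to be above background, so the sizes of their rises are uncertain. Asparagine synthetase, *Asns*, a textbook target of the same element, had signals between 360.3 and 449 on the 5 arrays (0.13 against NT, adjusted p = 0.812). The list's members therefore did not move alike, and a relation of the carrier to these factors was not tested.

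Carriers of family 6 take up transmitters and related small molecules at the plasma membrane, and 14 were measured, 7 of them bright. *Slc6a8*, the creatine transporter, had 1119 and 1287 in GFP+ cells, 909.5 and 936 in GFP+/- cells and 536 in NT cells. The 3 populations did not overlap, and it rose by 1.16 in GFP+ over NT cells (SE 0.20, adjusted p = 0.0301), with a difference of 0.78 in GFP+/- cells (adjusted p = 0.0736). *Slc6a6*, the taurine transporter, had 972 and 1735, 967 and 1579, and 525. Its arrays within a population were far apart, and the differences from NT of 1.31 and 1.23 did not pass (adjusted p = 0.138 and 0.154). *Slc6a15*, a neuronal transporter of branched-chain amino acids and proline, had 385 and 295, 239 and 289, and 1034. It fell by 1.62 in GFP+ (SE 0.28, adjusted p = 0.0287) and by 1.98 in GFP+/- cells (SE 0.28, adjusted p = 0.0189).

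Carriers of single transmitters followed. *Slc6a4*, the serotonin transporter, had 268 and 201, 161 and 226, and 85.6 (1.44 in GFP+ against NT, adjusted p = 0.0739). This probe set is bright through transfected arrays only, as its NT signal lay below the brightness limit. The dim second probe set of *Slc6a4* had 76.7 and 50.4, 69.2 and 19.6, and 71.7. Its differences from NT were -0.21 in GFP+ and -0.96 in GFP+/- cells, against 1.44 and 1.16 for the brightest, so they differed in sign. The noradrenaline transporter *Slc6a2* ran from 161 to 207 on the 5 arrays, the GABA transporter *Slc6a11* from 119 to 219 and the glycine transporter *Slc6a9* from 101 to 342, with adjusted p from 0.206 to 0.937 in GFP+ against NT cells. In *Slc6a9* the arrays of each population were about as far apart as the populations were from NT.

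Vesicular carriers load transmitters into synaptic vesicles. Their families 17, 18 and 32 had 6 measured members, among them *Slc17a1*, a phosphate and urate carrier of kidney, and 2 of the 6 were bright. *Slc32a1*, the carrier of GABA and glycine, had 1353 and 1251 in GFP+ cells, 1435 and 1622 in GFP+/- cells and 1456 in NT cells. It differed little between populations, with a difference of -0.23 between GFP+ and GFP+/- cells (SE 0.16, adjusted p = 0.595) and of -0.16 between GFP+ and NT cells (SE 0.20, adjusted p = 0.708). The GABA-synthesising enzyme *Gad1* had 2385 and 2329, 1328 and 1804, and 3829.8, and fell in GFP+/- against NT cells (-1.31, adjusted p = 0.0331) but did not pass in GFP+ cells (-0.70, adjusted p = 0.152). The acetylcholine carrier *Slc18a3* had 199.6 and 278, 197 and 254, and 297 (-0.33 against NT, adjusted p = 0.635). The glutamate carrier *Slc17a7* had between 5.15 and 8.25, and the monoamine carrier *Slc18a2* between 37.5 and 83.3. Of 15 measured transmitter enzymes (of 18 listed), 0 rose and 1 fell in GFP+ and 0 rose and 2 fell in GFP+/- against NT cells, the dim *Ddc* in both and *Gad1* in the latter. Over all genes 4.31% rose and 4.10% fell in GFP+ cells, and 4.54% rose and 5.32% fell in GFP+/- cells.

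**Figure D3:**
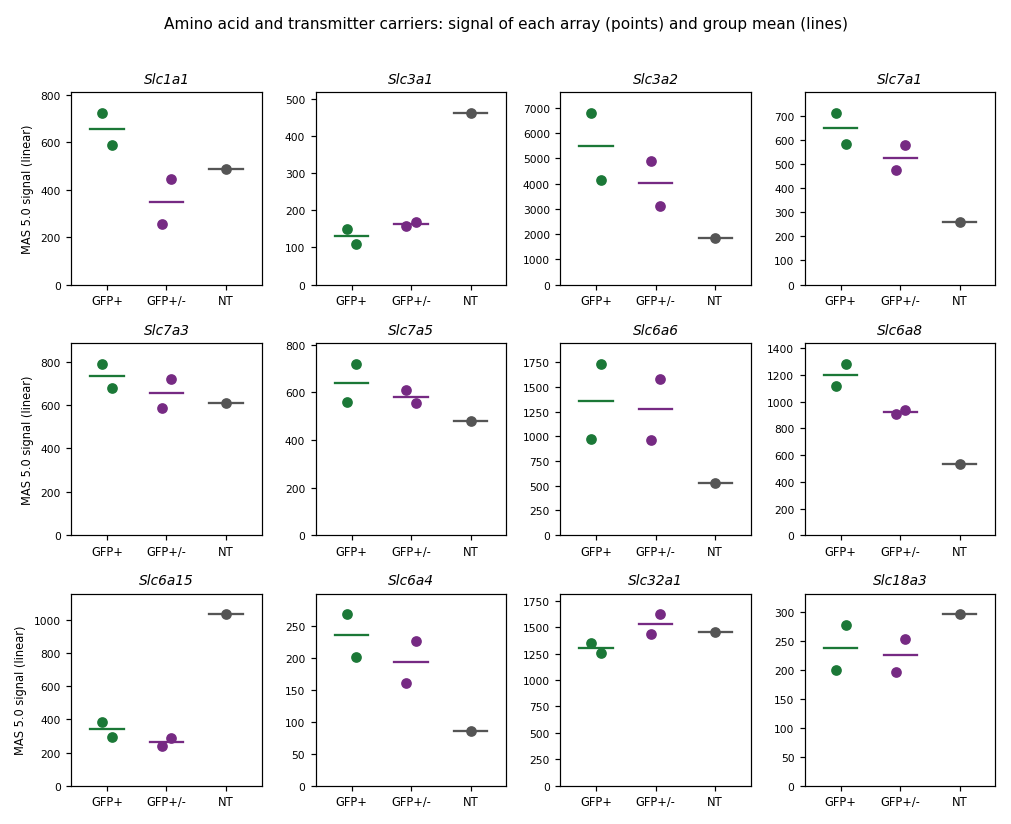
MAS 5.0 signal (linear scale, from 0) of 12 carriers of amino acids and transmitters, with a point per array and a line at the mean of each population (2 GFP+, 2 GFP+/- and 1 NT array). *Slc6a15* and *Slc3a1* are highest in NT cells (1034 and 461), *Slc7a1*, *Slc6a8* and *Slc3a2* are lowest there (260.3, 536 and 1837), and *Slc32a1* is similar in all 3 populations.

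Carriers of family 25 sit mostly in the inner mitochondrial membrane, and 11 of 12 measured were bright. *Slc25a4*, the translocator ANT1 that exchanges ADP for ATP in heart, muscle and brain, had 1412 and 2096 in GFP+ cells, 2412 and 2217 in GFP+/- cells and 6539.8 in NT cells. It fell in both comparisons with NT cells, with differences of -1.93 (SE 0.28, adjusted p = 0.0206) and -1.50 (SE 0.28, adjusted p = 0.0332). *Slc25a3*, which imports the phosphate for ATP synthesis, had 4421 and 4556, 4398 and 4158, and 10777, and fell by 1.26 (SE 0.20, adjusted p = 0.0247) and by 1.33 (SE 0.20, adjusted p = 0.0226). The isoform ANT2 (*Slc25a5*) had no such drop from NT cells, with -0.34 in GFP+ (adjusted p = 0.445) and 0.40 in GFP+/- cells (adjusted p = 0.365). ANT1 and ANT2 are close relatives, and cross-hybridization between their probe sets was not tested.

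*Slc25a10*, the dicarboxylate carrier, ran the other way, with 1099.9 and 1105, 1119 and 907, and 548. It rose by 1.01 in GFP+ cells (SE 0.22, adjusted p = 0.0496), a call that was lost with equal medians (adjusted p = 0.0562), and its second bright probe set had 1.78 (adjusted p = 0.0168). The citrate carrier *Slc25a1* had 5128 and 4457, 4647 and 4124, and 3497 (0.45, adjusted p = 0.292). For *Slc25a11*, the oxoglutarate carrier of the malate-aspartate shuttle, the probe sets opposed each other. The brightest had 2616 and 1988, 2597 and 2356, and 1533 (0.57 against NT, adjusted p = 0.223), the other 307 and 366, 328 and 323, and 771 (-1.20, adjusted p = 0.0403). *Slc25a30* (588 in NT cells, 231 to 338 elsewhere) and the peroxisomal *Slc25a17* (1689 in NT cells, 950.5 to 1062 elsewhere) were also brightest in NT cells, without passing over all probe sets (adjusted p = 0.0744 and 0.0831 in GFP+ cells).

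**Figure D4:**
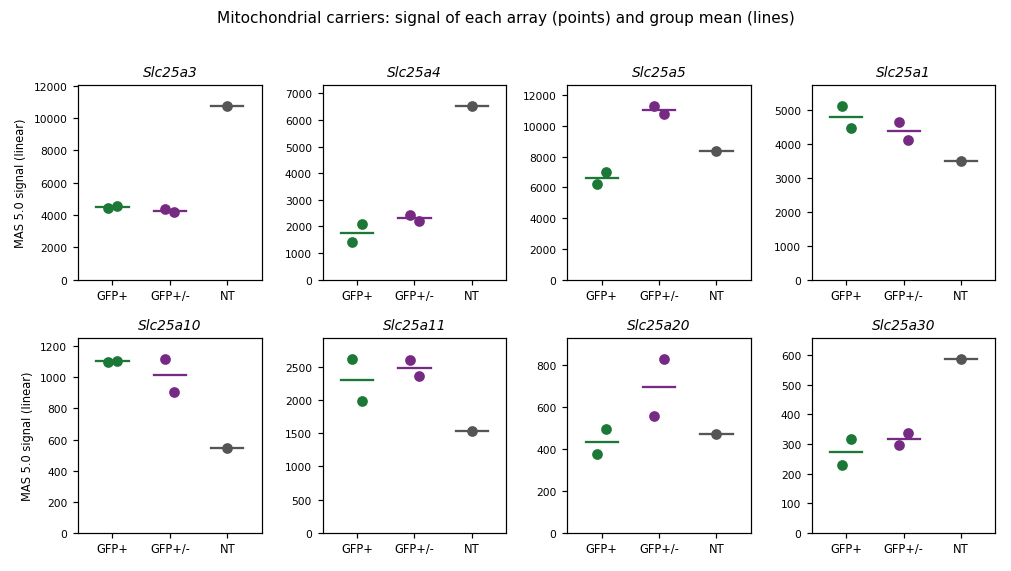
MAS 5.0 signal (linear scale, from 0) of 8 carriers of family 25, with a point per array and a line at the mean of each population (2 GFP+, 2 GFP+/- and 1 NT array). *Slc25a3* and *Slc25a4* stand at 10777 and 6539.8 in NT cells against at most 4556 and 2412 elsewhere, whereas *Slc25a5* is lowest in GFP+ cells (6233 and 7009).

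In families 2, 5, 35 and 37, most of whose members carry sugars or nucleotide sugars, 7 of 15 members were bright and none was called. The 15 include the multivitamin transporter *Slc5a6*, which is bright, and the iodide transporter *Slc5a5*, which is dim. GLUT3 (*Slc2a3*), the glucose transporter of neurons, had 216 and 252 in GFP+ cells, 205 and 191 in GFP+/- cells and 210.0 in NT cells, a difference of 0.24 between GFP+ and GFP+/- cells (adjusted p = 0.693). In the Golgi and endoplasmic reticulum, the CMP-sialic acid carrier *Slc35a1* had 719 and 747, 540.3 and 643, and 1109.6, and the nucleotide carrier *Slc35b1* 3166 and 3036, 4341 and 2901, and 2123. The former was brightest and the latter dimmest in NT cells, with differences of -0.60 (adjusted p = 0.160) and 0.55 (adjusted p = 0.323) in GFP+ cells. The lactate carrier *Slc16a1*, the bright one of 6 monocarboxylate carriers, had 236 and 238, 183 and 188, and 278.

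The metal ion carriers held 4 bright members of 7. *Slc11a2*, the iron importer DMT1, had 3005 and 2131, 2802 and 2257, and 1279, with differences from NT of 0.99 (adjusted p = 0.0952) and 0.98 (adjusted p = 0.0964). All 4 transfected arrays lay above NT, but a second bright probe set had 0.07 and 0.21. The zinc transporter *Slc30a4* had 203 and 159, 113 and 187, and 444 (-1.31, adjusted p = 0.112, and -1.61, adjusted p = 0.0657), and the fatty acid transporter *Slc27a2* had 349.7 and 306, 195 and 329.6, and 663 (-1.02, adjusted p = 0.156, and -1.38, adjusted p = 0.0748). Both were brightest in NT cells. *Slc30a4* passed the brightness limit through its NT signal. An array of each transfected population lay below that limit, so the size of its falls is uncertain. The folate carrier *Slc19a1*, the phosphate carrier *Slc20a2* and the peptide carriers *Slc15a2* and *Slc15a4* had adjusted p between 0.195 and 0.852 in GFP+ against NT cells.

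Several carriers could be read a second time. Of the 57 bright members, 10 had a further bright probe set, and its difference had the same sign as that of the brightest for 9 of 10 in GFP+ against NT, 7 of 10 in GFP+/- against NT and 5 of 10 in GFP+ against GFP+/- cells. For *Slc7a1* and *Slc25a14* the second probe set is bright through some populations only, with a mean signal under 175 in at least 1 other. Without these 2 genes the counts, taken after the values were seen, were 7, 5 and 5 of 8. The exception against NT in GFP+ cells was *Slc25a11*. A second probe set of *Slc25a14*, a mitochondrial uncoupling protein homologue of brain, had 141 and 182 in GFP+ cells, 112 and 116 in GFP+/- cells and 519 in NT cells (-1.69, adjusted p = 0.0344, and -2.18, adjusted p = 0.0198), while the brightest had -0.50 and -0.43. It passed the brightness limit through its NT signal, so it adds no separate support for a fall. Differences between GFP+ and GFP+/- cells differed in sign between the probe sets for the other 5 of the 10 genes, *Slc7a1* and *Slc25a14* among them. For the rest of the 5 both readings lay near 0. They were *Slc11a2* (0.0090 and -0.14), *Slc19a1* (-0.055 and 0.16) and *Slc25a11* (-0.12 and 0.043).

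**Figure D5:**
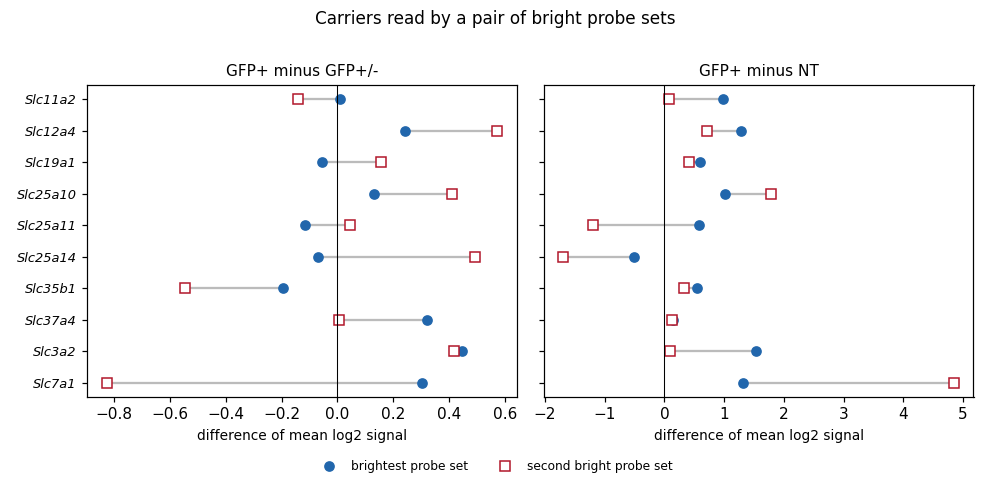
Difference of the mean log2 signal between populations for the 10 solute carriers with a pair of bright probe sets. Filled circles are the brightest probe set, open squares the second, and grey lines join them; in GFP+ minus NT the *Slc25a11* pair lies on either side of 0 (0.57 and -1.20) and the *Slc7a1* pair at 1.31 and 4.85, the latter against an NT signal of 8.62 not shown to be above background.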

How the data were processed

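Affymetrix rat arrays of 5 RNA samples were used: 2 of GFP+, 2 of GFP+/- and 1 of NT cells. The authors used MAS 5.0, and deposited per probe set a linear intensity scaled by one factor per array. The deposited values had a trimmed mean of 501 on every array (2% left out at each end), so overall signal strength cannot be compared. Detection calls were not used here. Of 8799 probe sets 59 controls were left out. The platform annotation named 1 gene for 7006 of the 8740 others, several for 308 and none for 1426. The symbols of the 118 members were checked against RefSeq GRCr8 by gene identifier, and 0 were renamed.

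Signals under 1 were set to 1, and log2 signals were tested with limma 3.58.1 in R 4.3.3, in one fit of 5 arrays that had a mean for each population, an intensity trend and no covariates. Benjamini-Hochberg adjustment ran over 8740 probe sets (threshold 0.05). Shares of genes refer to 4736 genes, each by its brightest probe set. Steps were tested on simulated data. Python 3.11.15 made tables and plots. The arrays carry no read depth, and their number limits the precision.

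Genes were named by a rule: up to 8 bright, separated members per direction and comparison, the 10 brightest, every called member, bright members of the transmitter and amino acid families, probe sets that disagreed, and the brightest of each role. The members, gene lists, marker lists, motif and naming rule were chosen with earlier results of these data known. The alternatives were quantile normalization, equal medians, 16 added to each signal, the brightest 41% alone, the mean over all probe sets of a gene, a prior without trend, the 4 GFP+ and GFP+/- arrays alone, a block for the replicate number, and each array left out.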

Additional observations from a re-analysis of the deposited data

How the results depend on the processing

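For GFP+ against GFP+/- cells, the 8 members over 2-fold higher became 5 with quantile normalization, 3 with 16 added to each signal, 1 among the brightest 41% and from 7 to 13 with an array left out (13 without the second GFP+/- array). The 4 over 2-fold lower became 2 with 16 added, 0 among the brightest 41% and from 3 to 11 with an array left out (8 without the first and 11 without the second GFP+ array). The median difference of 0.12 became 0.00072 with quantile normalization and -0.038 with equal medians. With the mean over all probe sets of a gene, *Slc14a1* (-0.21) and *Slc8a1* (-0.022) reversed. For GFP+ against NT cells, the 12 calls became 20 among the brightest 41%, 0 without a trend and 0 with either GFP+ array left out, the 22 over 2-fold higher became 10 with 16 added and 11 among the brightest 41%, and the median of 0.099 became -0.021 with the mean of probe sets. For GFP+/- against NT cells, the 7 calls became 11 with equal medians, 21 among the brightest 41%, 0 without a trend and 0 with either GFP+/- array left out. The 15 over 2-fold higher and 16 lower became 7 and 9 among the brightest 41%, and the median of -0.066 became 0.036 with quantile normalization, 0.048 with equal medians and 0.027 among the brightest 41%, and from -0.042 to -0.0090 with an array left out. The brightest 41% hold fewer members and fewer tests, and leaving out an array leaves fewer residual degrees of freedom. Other causes were not tested.

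The replicate numbers of the labels give GFP+ and GFP+/- arrays 2 shared numbers, and no label ties a number to a shared experiment, so the arrays were not treated as pairs. Deviations of same-numbered arrays correlated at 0.063 over all probe sets and at 0.20 among the brightest 41%, and in *Slc3a2* and *Slc6a6* the arrays with the same number lay on the same side of their population means. With a replicate block the count of called members was 0, as without it, and it changed none of the 16 named differences of that comparison in sign or call.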

Other observations

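Transporters outside the solute carriers were also measured. Against NT cells, 4.31% of all genes rose and 4.10% fell in GFP+ cells, and 4.54% rose and 5.32% fell in GFP+/- cells. Of 15 measured ATP-binding cassette transporters (of 34 listed), 1 rose and 0 fell in GFP+ against NT cells. In GFP+/- cells 0 were called, and the median differences were 0.24 and 0.14. The one that rose was the dim *Abcb4*, a phospholipid exporter. It had signals of 249.9 and 216 in GFP+ cells, 167 and 72.1 in GFP+/- cells and 21.9 in NT cells (difference 3.41, adjusted p = 0.0262). Its NT signal was not shown to be above background, so the size of the rise is uncertain. The 9 aquaporins were dim, and 0 were called in either comparison. *Aqp1*, the water channel of the choroid plexus, had 6.54 and 25.8, 116 and 109, and 80.2. It is one of the choroid plexus markers summed for each array. Of 8 measured subunits of the vacuolar proton pump (of 19), which drives the vesicular carriers, 0 were called in GFP+ cells and 1, *Atp6v1d*, fell in GFP+/- against NT cells (-1.12, adjusted p = 0.0320).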
